A study of Mus musculus with 4 samples.

Results

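The mRNAs of 8 amino acid transporters that T cells use when they are activated (Slc7a5, Slc3a2, Slc7a6, Slc7a1, Slc1a5, Slc1a4, Slc38a1 and Slc38a2) were measured in mouse Th17 cells with and without the kinase PRAK. The genes were taken by symbol from the deposited expression table, which held 17921 genes, and all 8 were found and passed the filter on low counts. PRAK, a kinase downstream of p38, is encoded by Mapkapk5. The groups were Th17 cells from 2 PRAK KO mice and Th17 cells from 2 WT mice, with 1 library per mouse, called KO 1, KO 2, WT 1 and WT 2 after the mouse numbers in the labels. Both groups began as naive CD4+ T cells enriched from the mouse and were kept under Th17-polarising conditions in vitro for 72 h, and all cells in the culture were then used for total RNA. The strain, age and sex of the mice and the way in which PRAK was deleted are not given in the labels. The labels count separate mice, so p-values measure the spread between mice and any effect of the separate cultures.

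Amino acid transporters are membrane proteins that set how fast a cell can take up the building blocks of protein. A resting T cell carries few of them, and stimulation through the T cell receptor raises their expression as the cell grows and divides. The leucine carrier LAT1 is a dimer of a light chain, encoded by Slc7a5, and a glycosylated heavy chain, CD98, encoded by Slc3a2, which brings the light chain to the cell surface. Leucine and glutamine taken up this way feed the growth kinase mTORC1, and mouse T cells without Slc7a5 or Slc1a5 are known to differentiate poorly into Th17 cells. The stress-responsive transcription factor ATF4 and the growth factor MYC are both known to drive genes of this group. The title of the series places PRAK with NRF2, redox balance and glycolysis in Th17 differentiation.

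Total expected counts lay between 19418012 and 20125124 per library, and between 15180 and 15737 genes had a count above 0. Mapkapk5 (gene ID 17165) stood at 20.04 and 21.6 CPM (counts scaled to library size) in KO 1 and KO 2, against 35.6 and 38.4 CPM in WT 1 and WT 2. It was lower in both KO libraries (log2 fold change -0.83, adjusted p = 0.0194, quasi-likelihood test of edgeR, adjusted by the Benjamini-Hochberg method), but not past the threshold of 0.05 without WT 1 (adjusted p = 0.0918) or WT 2 (0.169). Which exons were removed is not in the labels, so its remaining reads do not show how much intact transcript was left. The KO libraries stood farther apart from each other than the WT libraries did. The median size of the difference between libraries, on the log2 CPM scale over 12680 tested genes, was 0.26 between KO 1 and KO 2 and 0.11 between WT 1 and WT 2.

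The transporter mRNAs were detected in all libraries, and none of the 8 passed the test of PRAK KO against WT. All 8 fold changes pointed upward in KO, and their median was 0.53 on the log2 scale (lowest 0.24, highest 1.02), beside a median of 0.02 over all 12680 genes tested. In edgeR 0 of 8 had an adjusted p under 0.05 in either direction, where 5.14% of all genes passed as higher and 8.23% as lower. An unadjusted p under 0.05 was found for 4 of 8, all higher in KO, where 15.1% of all genes had such a p in that direction. In 6 of 8 both KO libraries lay above both WT libraries, where 31.7% of all genes did, and in 0 of 8 both lay below, where 31.4% did. DESeq2 called 3 of 8 as higher (Slc1a5, Slc1a4 and Slc7a1), with 7.79% of all genes called in that direction, and limma on log2(TPM + 1) called 0 of 8, with 4.91% of all genes called.

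The 2 KO cultures differed from each other in these genes. All 8 were higher in KO 1 than in KO 2, where 49.8% of all genes tested were. The median difference, KO 1 minus KO 2 on the log2 CPM scale, was 0.69 over the 8 genes (0.22 to 1.46). The corresponding median for WT 1 minus WT 2 was 0.15. The median difference of the 8 genes from the WT mean was 0.83 in KO 1 (0.37 to 1.39) and 0.20 in KO 2 (-0.10 to 0.48). Over all genes tested these medians were 0.007 and 0.007. When KO 2 was left out, 8 of 8 genes passed as higher in KO, with 22.2% of all genes called in that direction. When KO 1 was left out, 3 of 8 passed (Slc1a5, Slc1a4 and Slc7a1), with 17.3% of all genes called. In both of these fits the lone KO library is assumed to vary as the WT libraries do. With all 4 libraries, the SD in CPM was larger in KO than in WT for 8 of 8 genes. The counts from these fits therefore leave out the spread between KO mice. When WT 1 or WT 2 was left out, 0 of 8 passed, with 1.59% and 1.85% of all genes called higher.

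**Figure D1:**
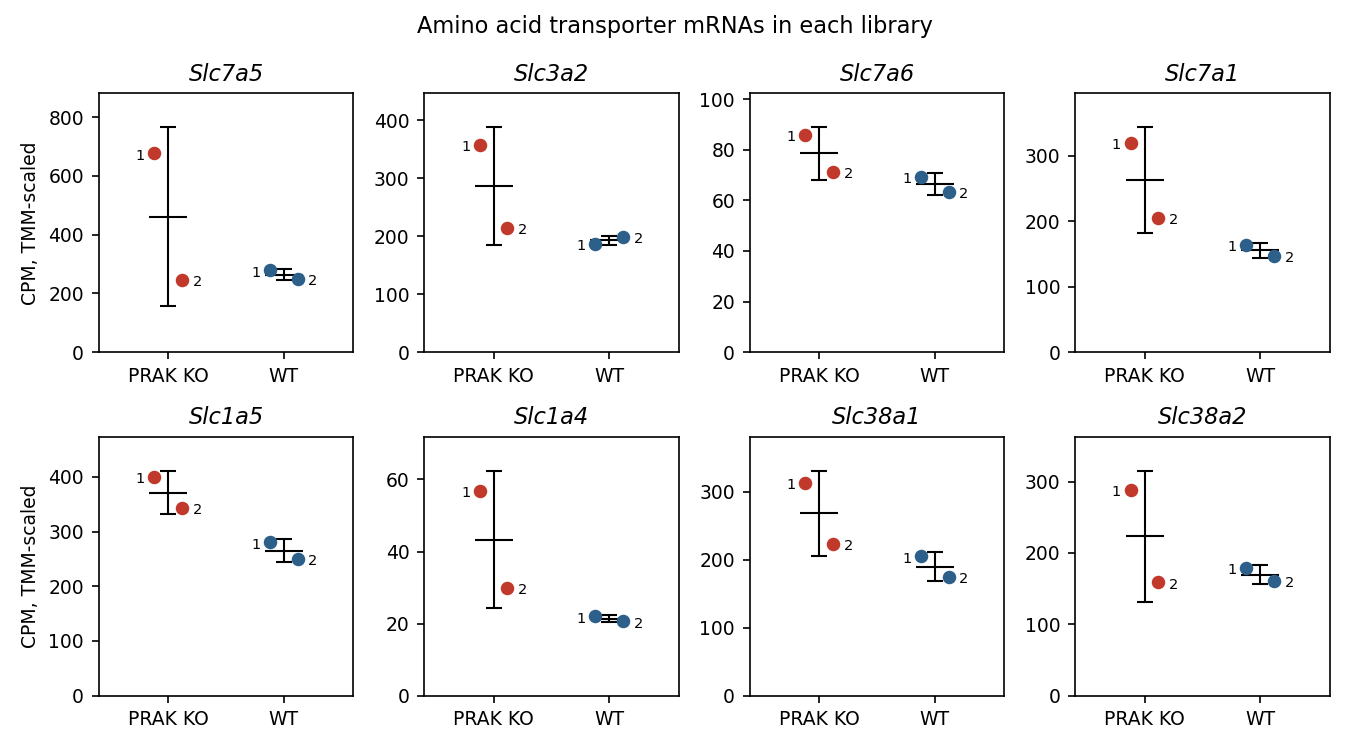
Level of each transporter mRNA in CPM with TMM scaling (vertical axis, linear and starting at 0) in the PRAK KO and WT libraries. Points are libraries with their mouse number, and the horizontal mark and bars are mean ± SD (n = 2 each). KO 1 is the highest library in all 8 panels, and KO 2 lies just below both WT libraries for Slc7a5 and Slc38a2.

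The CD98 dimer comes first. Slc7a5, the LAT1 light chain that imports leucine and other large neutral amino acids (gene ID 20539, chromosome 8, 121881146 to 121907686, GRCm38.p6), had 676 and 246 CPM in KO 1 and KO 2, against 278 and 250.05 CPM in WT 1 and WT 2. KO 1 was far above the other libraries, and KO 2 lay just under both WT libraries, so the groups overlapped. The mean was 461 ± 305 CPM in KO and 264 ± 19.8 in WT (SD, n = 2 each). This gave a log2 fold change of 0.80 ± 0.45 (SE) and a 95% interval of -0.32 to 1.93 (adjusted p = 0.284, edgeR). Without KO 1 it turned to -0.10, and without KO 2 it was 1.35.

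Slc3a2, the CD98 heavy chain (gene ID 17254, chromosome 19, 8706882 to 8723369), stood at 358 and 214 CPM in KO 1 and KO 2, against 187 and 199 CPM in WT 1 and WT 2. Both KO libraries were above both WT libraries, KO 2 by a small margin. The difference was 0.57 ± 0.25 (SE) on the log2 scale, with a 95% interval of -0.05 to 1.195 (adjusted p = 0.186). It was 0.15 without KO 1 and 0.89 without KO 2. Its expected counts were not whole numbers, which arises where RSEM divides reads between genes. The proportion of light to heavy chain mRNA was not steady across the KO cultures. In TPM, which is scaled to gene length, Slc7a5 was 1.21 times Slc3a2 in KO 1 and 0.765 times in KO 2, against 0.994 times in WT 1 and 0.842 times in WT 2. The WT ratios fell between the KO ratios.

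Slc7a6, the y+LAT2 light chain, which also pairs with CD98 and exchanges cationic for neutral amino acids (gene ID 330836, chromosome 8, 106168219 to 106198714), had the smallest difference of the 8. It stood at 85.9 and 71.2 CPM in KO 1 and KO 2, against 69.4 and 63.5 CPM in WT 1 and WT 2. The KO libraries were above the WT libraries, with KO 2 close to WT 1. Its log2 fold change was 0.24 ± 0.14 (SE), with a 95% interval of -0.11 to 0.59 (adjusted p = 0.297).

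Slc7a1 encodes CAT1, the carrier of arginine, lysine and ornithine (gene ID 11987, chromosome 5, 148327410 to 148399904). It stood at 319.5 and 205 CPM in KO 1 and KO 2, against 164 and 147 CPM in WT 1 and WT 2. The groups did not overlap. Its log2 fold change was 0.75 ± 0.23 (SE), with a 95% interval of 0.19 to 1.32 before adjustment (adjusted p = 0.0856). It kept its direction without KO 1 (0.40) and without KO 2 (1.03). Its expected counts, like those of Slc3a2, were not whole numbers.

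The ASC carriers both lay higher in the KO libraries. Slc1a5 encodes ASCT2, which exchanges neutral amino acids including glutamine (gene ID 20514, chromosome 7, 16781334 to 16798274). It stood at 399.5 and 343 CPM in KO 1 and KO 2, against 280.3 and 250.4 CPM in WT 1 and WT 2, and the groups did not overlap. The KO libraries differed by 1.16-fold and the WT libraries by 1.12-fold, the closest agreement of the KO libraries among the 8 genes. The log2 fold change was 0.48 ± 0.14 (SE), with a 95% interval of 0.13 to 0.84 before adjustment (adjusted p = 0.0829), and it was 0.37 without KO 1 and 0.58 without KO 2.

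Slc1a4 encodes ASCT1, a carrier of alanine, serine, cysteine and threonine (gene ID 55963, chromosome 11, 20302180 to 20332713). Its mean was 43.3 ± 19.1 CPM in KO and 21.3 ± 0.953 in WT (SD, n = 2 each). The libraries stood at 56.8 and 29.8 CPM in KO 1 and KO 2, against 22.0 and 20.7 CPM in WT 1 and WT 2. The WT libraries were nearly equal and both KO libraries were above them. On the log2 scale the fold change was 1.02 ± 0.31 (SE), the largest of the 8, with a 95% interval of 0.25 to 1.79 before adjustment (adjusted p = 0.0869). It was 0.48 without KO 1 and 1.41 without KO 2.

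The sodium-coupled carriers of system A differed from each other in KO 2. Slc38a1 encodes SNAT1, which takes up glutamine and other small neutral amino acids (gene ID 105727, chromosome 15, 96571418 to 96643438). It stood at 312 and 224 CPM in KO 1 and KO 2, against 205 and 174 CPM in WT 1 and WT 2, without overlap. The log2 fold change was 0.50 ± 0.20 (SE), with a 95% interval of 0.01 to 0.99 before adjustment (adjusted p = 0.150). The RefSeq gene Gm32457 overlaps it, and without strand the reads of overlapping genes cannot be told apart. Slc38a2 encodes SNAT2, the system A carrier known to be induced when amino acids run short (gene ID 67760, chromosome 15, 96687392 to 96699728). It stood at 288 and 159 CPM in KO 1 and KO 2, against 179 and 161 CPM in WT 1 and WT 2. Only KO 1 was above the WT libraries. On the log2 scale the fold change was 0.40 ± 0.28 (SE), with a 95% interval of -0.31 to 1.10 (adjusted p = 0.389), and it turned to -0.10 without KO 1 (0.76 without KO 2).

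**Figure D2:**
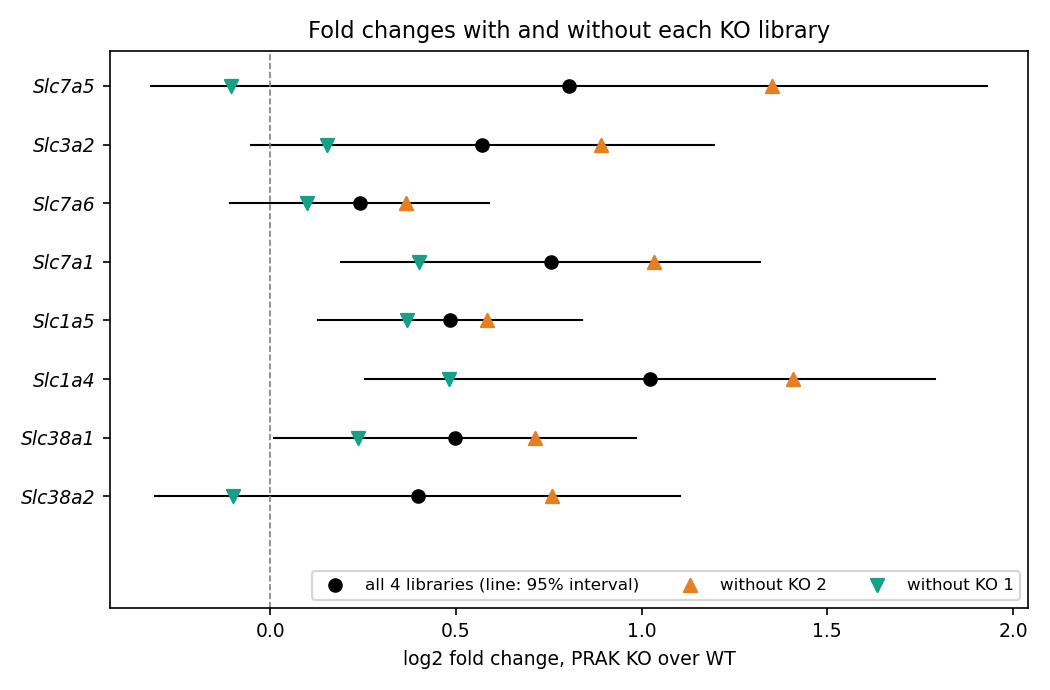
Log2 fold change of PRAK KO over WT for the 8 genes with all 4 libraries (black points, with unadjusted 95% intervals as lines), without KO 2 (upward triangles) and without KO 1 (downward triangles). Without KO 1 the values of Slc7a5 and Slc38a2 lie at -0.10, and without KO 2 all 8 lie between 0.36 and 1.41.

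Levels of different genes were compared in TPM. In WT the order was Slc1a5 (182 ± 11.4 TPM), Slc3a2 (148 ± 2.89), Slc7a5 (136 ± 13.3), Slc38a2 (66.3 ± 6.51), Slc38a1 (47.0 ± 6.20), Slc7a1 (39.3 ± 3.78), Slc7a6 (31.9 ± 2.75) and Slc1a4 (9.82 ± 0.658), as mean ± SD of 2 libraries. The same order was found in WT 1, WT 2 and KO 2. The gap between Slc3a2 and Slc7a5 was 12.3 TPM, less than the SD of Slc7a5. KO 1 had another order: Slc7a5 came first at 386 TPM, ahead of Slc3a2 (319 TPM) and Slc1a5 (313 TPM), and Slc7a1 (89.8 TPM) was ahead of Slc38a1 (86.7 TPM). Over the KO group the means of Slc1a5, Slc7a5 and Slc3a2 (278 ± 49.4, 258 ± 180.0 and 245 ± 104 TPM) did not differ beyond their spread, nor did those of Slc38a2, Slc38a1 and Slc7a1 (94.3 ± 42.7, 72.3 ± 20.3 and 71.9 ± 25.3 TPM).

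Summed over the 8 genes, the transporter mRNA came to 1393 TPM in KO 1 and 771 TPM in KO 2, against 690.02 TPM in WT 1 and 631 TPM in WT 2. Slc7a5 alone made up 27.7% of this sum in KO 1 and 17.0% in KO 2, against 21.1% in WT 1 and 20.1% in WT 2. Slc1a5 made up 22.5% and 31.5% in the KO libraries, against 27.5% in each WT library. The ratio of Slc1a5 to Slc1a4 was 10.8 in KO 1 and 17.1 in KO 2, against 18.5 and 18.6 in WT 1 and WT 2, so both KO libraries held relatively more of the scarcer ASC carrier. In RNA from a whole culture, more cells with a transcript and more of it per cell cannot be told apart.

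**Figure D3:**
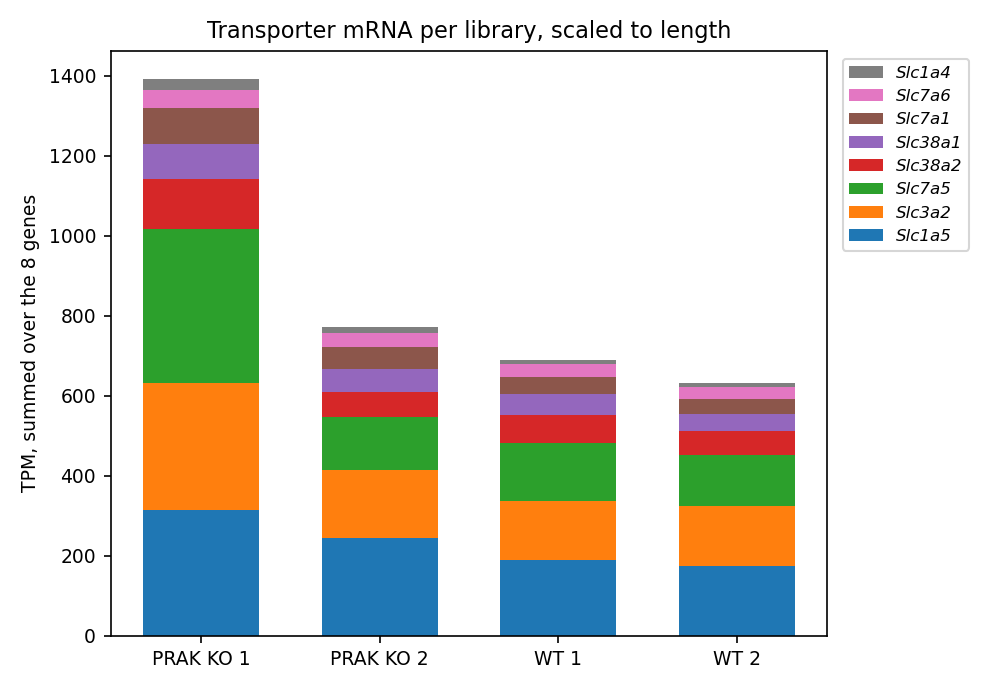
TPM of the 8 transporter mRNAs stacked for each library (vertical axis, linear and starting at 0). The KO 1 column reaches 1393 TPM, and the other columns lie between 631 and 771 TPM.

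The promoter sequences were read to show what short motifs lie near the starts of these genes. RefSeq promoter windows of GRCm38.p6, from 250 bases before to 50 bases after a transcription start, were found for 5 of 8 genes (7 windows: Slc1a4, Slc38a2 and Slc3a2 with 1 each, Slc7a1 and Slc7a6 with 2 each). The letters TGATGNAA, the core of the C/EBP-ATF composite element to which ATF4 binds, occurred on either strand in 1 of the 7 windows, where 3.97% of 32851 windows of all genes held them. That window belonged to Slc1a4. The letters TGACNNNGC, the core of the antioxidant response element to which NRF2 binds, occurred in 4 of the 7 windows, from 3 genes, where 12.4% of all windows held them. CACGTG, the E-box that MYC binds, occurred in 0 of the 7, where 7.15% of all windows held it. The 2 windows of Slc7a6 overlap and share their match. The stretches with a match are given 5′ to 3′ on the strand of the gene, with the matching letters in capitals, to show each match in its context.
Slc1a4, TGATGNAA on the opposite strand (chr11:20332700-20332727, minus strand): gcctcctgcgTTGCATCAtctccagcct
Slc38a2, TGACNNNGC (chr15:96699737-96699765, minus strand): ccccgcccacTGACGCGGCgccccgccgc
Slc7a1, TGACNNNGC on the opposite strand (chr5:148399897-148399925, minus strand): cggccgcgcgGCGCTGTCAttggtgccct
Slc7a6, TGACNNNGC (chr8:106168843-106168871, plus strand): ccggtgcgagTGACGTGGCgtgggcgggg
The match of Slc1a4 begins 4 bases before the RefSeq start and runs across it. A match is a description of the letters, and binding of a factor was not measured. The 3 genes with the NRF2 letters (Slc38a2, Slc7a1 and Slc7a6) had log2 fold changes of 0.40, 0.75 and 0.24 in KO. These fold changes did not pass the test, and a link between letters and fold changes was not tested.

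Other amino acid transporters of the plasma membrane were split. Of 40 genes chosen for this group, 20 could be tested, 6 rose in KO, 3 fell and 11 did not pass, and the median log2 fold change was 0.38. Of all genes tested, 652 (5.14%) rose and 1043 (8.23%) fell (918 and 864 with scaling by library size alone). Without the filter on low counts 33 of the group were tested, 6 rose and 3 fell, and the median was 0.10. The shares of all genes were then 3.93% and 6.51%. Among the genes that rose or fell, Slc7a8, Slc6a12, Slc38a3 and Slc38a4 met the filter only through the group where they were high. The group held 7 higher and 2 lower genes with DESeq2, where the shares of all genes were 7.79% and 10.3%. With limma on log2(TPM + 1) it held 4 and 1, beside shares of 4.91% and 6.1%. Slc7a11, the cystine-importing light chain of CD98, rose to 9.44 and 13.1 CPM in KO 1 and KO 2, against 2.46 and 1.83 CPM in WT 1 and WT 2 (log2 fold change 2.39, adjusted p = 0.0106). Slc16a10, the aromatic amino acid carrier TAT1, rose to 48.1 and 29.6 CPM in KO, against 15.9 and 13.7 CPM in WT (1.39, adjusted p = 0.0282). Slc7a8, the LAT2 light chain of CD98 (2.64, adjusted p = 0.0285), Slc7a2, the cationic carrier CAT2 (1.75, adjusted p = 0.0355) and Slc38a6 (0.92, adjusted p = 0.0274) also rose, of which Slc7a8 had a KO mean under 3 CPM. The betaine and GABA carrier gene Slc6a12 also rose. It had 16 and 57 counts in KO 1 and KO 2, against 2 and 2 counts in WT 1 and WT 2, a KO-to-WT ratio of 17.3 (adjusted p = 0.0432, edgeR). The 95% exact counting interval of this ratio was 6.47 to 65.1, which covers the counting of reads but not the spread between mice. On the log2 scale the 95% interval of edgeR was 1.80 to 6.28.

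Among the falls was a system L carrier. Slc43a2, the sodium-independent carrier LAT4, fell to 68.2 and 72.8 CPM in KO 1 and KO 2, against 116 and 106 CPM in WT 1 and WT 2 (log2 fold change -0.65, adjusted p = 0.0250). Slc38a3, the system N glutamine carrier SNAT3, had 0 counts in each KO library, against 99 and 171 counts in WT 1 and WT 2. With KO set to a floor of 3 counts per library (0.147 CPM), the WT mean of 7.01 CPM was 47.6-fold higher. The WT libraries stood at 5.08 and 8.94 CPM, a spread that this fold leaves out. The adjusted p of edgeR was 0.00827. Slc38a4 had 0 and 1 counts in KO, against 14 and 11 counts in WT, which is a WT-to-KO ratio of 26.4 (adjusted p = 0.0351, edgeR). Its 95% exact counting interval was 4.32 to 1084, which again leaves out the spread between mice. The 95% interval of edgeR for KO over WT was -6.65 to -2.16 on the log2 scale. The median log2 fold change of this group of transporters was 0.49 without WT 1 and 0.58 without WT 2. It was 0.29 without KO 1 and 0.44 without KO 2. Slc7a8 (0.173 and 0.182), Slc38a6 (0.218 and 0.225), Slc43a2 (0.247 and 0.139) and Slc6a12 (0.0887 and 0.0844) did not pass without WT 1 or WT 2, as given by the adjusted p in brackets. Slc7a2 did not pass without WT 1 (0.146), and Slc38a4 did not pass without WT 2 (0.124) and was not tested without WT 1. Slc38a4 did not pass with DESeq2 (0.0845) or limma (0.0634) either, nor did Slc16a10 (0.0697), Slc43a2 (0.0862) and Slc6a12 (0.0889) with limma.

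Several of these transporters belong to the ATF4-dependent amino acid response in mammalian cells. Like the 8 transporters, genes of this response were mostly higher in KO 1 than in KO 2. Of 24 genes, 4 rose, 3 fell and 17 did not pass, where 5.14% of all genes rose and 8.23% fell, and the median log2 fold change was 0.37. The 4 with the smallest p-values were Vldlr (-4.24, adjusted p = 0.00319), Sesn2 (1.80, adjusted p = 0.00604), Stc2 (-2.88, adjusted p = 0.00902) and Ddit4 (-1.12, adjusted p = 0.00948), of which 3 were falls. Vldlr is a lipoprotein receptor, Sesn2 a leucine sensor that restrains mTORC1, Stc2 a secreted glycoprotein and Ddit4 an mTORC1 inhibitor that hypoxia also induces. Of the 24, 21 were higher in KO 1 than in KO 2, where 49.8% of all genes were. The median difference from the WT mean, on the log2 CPM scale, was 0.86 in KO 1 and -0.27 in KO 2. For the 8 transporters it was 0.83 in KO 1 and 0.20 in KO 2. Atf4 itself stood at 581 and 294 CPM in KO 1 and KO 2, against 309 and 331 CPM in WT 1 and WT 2 (log2 fold change 0.45, adjusted p = 0.383). Asns, asparagine synthetase, stood at 230 and 77.7 CPM in KO, against 115 and 131 CPM in WT (0.32, adjusted p = 0.681). The median log2 fold change of the 24 genes was -0.28 without KO 1 and 0.86 without KO 2. It was 0.40 without WT 1 and 0.42 without WT 2.

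The genes whose pattern was most like that of the CD98 dimer were found by the distance between centred log2 CPM profiles over the 4 libraries, among 7333 other named genes that averaged 20 CPM or more. Nearest to Slc7a5 were Shmt2, the mitochondrial serine hydroxymethyltransferase (distance 0.130), Gpt2, the mitochondrial alanine transaminase (0.316), and Aqp3, a water and glycerol channel (0.328). Shmt2 stood at 751 and 305 CPM in KO 1 and KO 2, against 345 and 302 CPM in WT 1 and WT 2. Nearest to Slc3a2 were Mettl1, a tRNA methyltransferase (0.0653), Orc2, a subunit of the origin recognition complex (0.0850), and Cyb5r1, a cytochrome b5 reductase (0.0913). Within the 8 genes, Slc7a5 was nearest to Slc1a4 (0.491), Slc3a2 and Slc38a2 were nearest to each other (0.269), and so were Slc1a5 and Slc38a1 (0.192). With 4 libraries these distances are descriptions only.

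Enzymes that use the amino acids carried were counted in the same way. Of 22 tested, 0 rose and 3 fell with edgeR, where 5.14% of all genes rose and 8.23% fell, and the median was 0.15 on the log2 scale. With DESeq2 3 were called higher and 3 lower, where the shares of all genes were 7.79% and 10.3%. Gls2, a glutaminase that p53 is known to induce, fell to 18.01 and 14.02 CPM in KO 1 and KO 2, against 71.7 and 72.5 CPM in WT 1 and WT 2 (-2.17, adjusted p = 0.00319). Glud1, glutamate dehydrogenase (-0.65, adjusted p = 0.0282), and Got1, the cytosolic aspartate transaminase (-0.57, adjusted p = 0.0282), also fell, but not without WT 1 (0.271 and 0.289) or WT 2 (0.271 and 0.266). Bcat1, which transaminates leucine, isoleucine and valine in the cytosol, stood at 173 and 83.1 CPM in KO, against 59.3 and 59.3 CPM in WT (1.11, adjusted p = 0.0879). The median log2 fold change of the enzymes was 0.01 without KO 1, 0.22 without KO 2, 0.15 without WT 1 and 0.12 without WT 2.

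Of 21 regulators and partners of the transporters 0 rose and 1 fell with edgeR, beside 5.14% and 8.23% of all genes, and the median was -0.14 on the log2 scale. With DESeq2 0 were called higher and 5 lower, beside 7.79% and 10.3% of all genes. The fall was that of Bsg, basigin, a chaperone of lactate carriers that associates with CD98, which stood at 407 and 409 CPM in KO 1 and KO 2, against 899 and 993 CPM in WT 1 and WT 2 (-1.21, adjusted p = 0.00880). Myc stood at 563 and 404 CPM in KO, against 489 and 475 CPM in WT, so KO 1 was above and KO 2 below the WT libraries (0.00, adjusted p = 0.992). The median of the group was -0.30 without KO 1, -0.25 without KO 2, -0.21 without WT 1 and -0.10 without WT 2.

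Markers of cell types moved between the KO libraries beside the transporters. All 7 Th17 markers were higher in KO 1 than in KO 2, and their summed level was 3090.0 and 1285 CPM in KO 1 and KO 2, against 3244 and 2929 CPM in WT 1 and WT 2. Of these markers Ccr6 rose (1.12) and Il23r fell (-1.77), the last not without WT 1 (adjusted p = 0.0763) or WT 2 (0.0721), nor with limma (0.0523). The 11 myeloid markers ran the other way, with 0 of 11 higher in KO 1 than in KO 2. Their sum was 124 and 301 CPM in KO, against 59.5 and 77.6 CPM in WT. Of the 11, 6 rose, where 5.14% of all genes did, and none was at 0 in all libraries. Their median log2 fold change was 2.55. It was 3.05 without KO 1, 1.63 without KO 2, 2.18 without WT 1 and 3.40 without WT 2. The 4 with the smallest p-values had log2 fold changes of 2.55 (Itgax), 3.68 (Csf1r), 2.39 (Fcer1g) and 4.05 (Lyz2). Without KO 2 those of Csf1r and Lyz2 were 2.65 and 2.45. Lyz2 did not pass without WT 1 (adjusted p = 0.686) or WT 2 (0.712), Fcer1g not without WT 1 (0.0698), and Csf1r not with limma (0.0518). Markers of CD8 T and NK cells summed to 406 and 325 CPM in KO, against 79.0 and 186 CPM in WT, and 1 of 7 tested rose (Nkg7, 1.96), but not without KO 2 (adjusted p = 0.106), WT 1 (0.197) or WT 2 (0.110). B cell markers summed to 103 and 86.9 CPM in KO, against 26.3 and 69.5 CPM in WT, and 1 of 5 rose (Ms4a1, 3.43). CD4 T cell markers summed to 1921 and 2459 CPM in KO, against 2079 and 2092 CPM in WT, and 1 of 5 rose (Cd5, 0.94), but not without WT 1 (adjusted p = 0.0996) or WT 2 (0.190). Erythroid markers summed to less than 7 CPM in every library. The part of these cell types in the transporter levels was not tested.

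**Figure D4:**
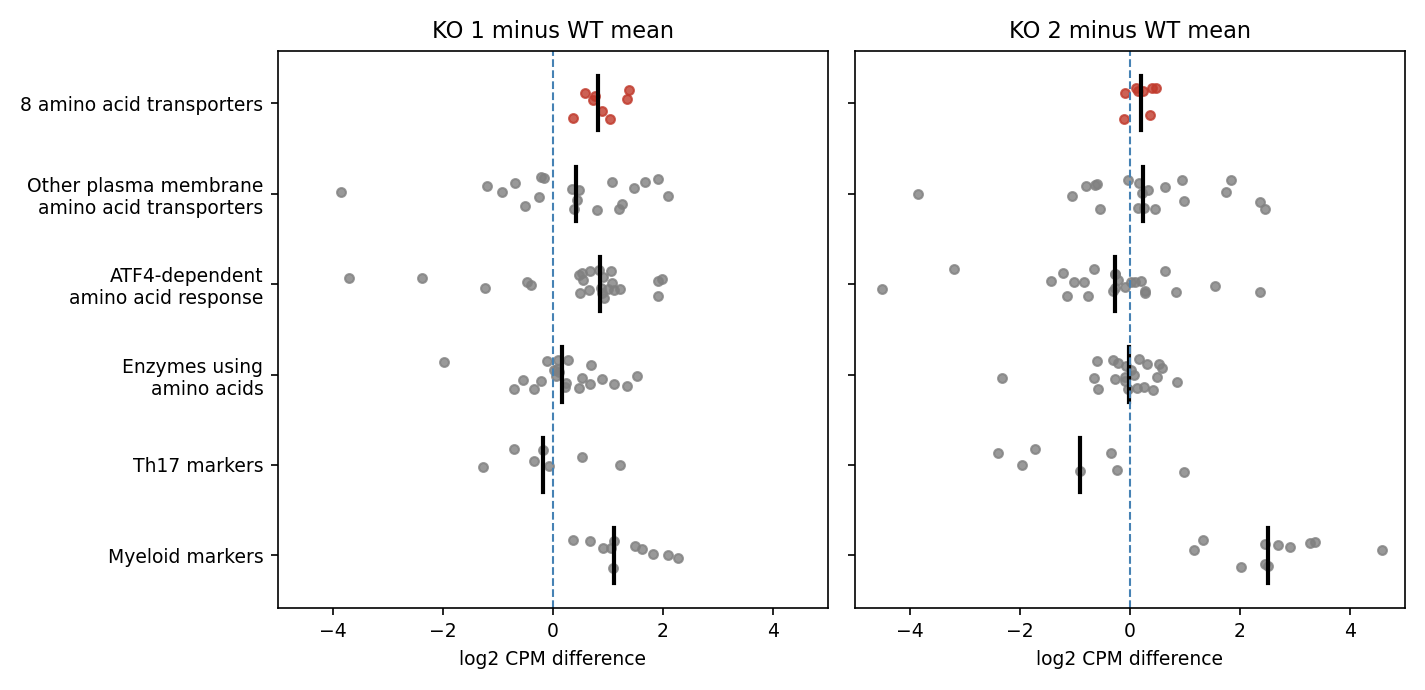
Difference of KO 1 (left) and of KO 2 (right) from the mean of the WT libraries, on the log2 CPM scale, for the 8 transporters (red) and for other gene groups (grey). Points are genes, black bars are group medians, and the dashed line is the median of all genes tested; the transporters have medians of 0.83 in KO 1 and 0.20 in KO 2, and both panels use the same WT libraries.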

How the data were processed

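RNA sequencing had been run on Th17 cells of 2 PRAK KO and 2 WT mice on a BGISEQ platform, per the labels. The deposited table holds RSEM expected counts (not normalised), FPKM (scaled by the authors to length and library size, not used here) and TPM (scaled by the authors to length and to the same sum in each library), as its header and values show. Named in the submitters' processing notes, without roles, are RSEM 1.2.12, Bowtie2 2.2.5, HISAT2 2.0.4 and the build GRCm38.p6. The kit, strand and annotation release are not given in the labels. RSEM divides shared reads by a model, which can move values of similar genes.

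Expected counts were rounded, filtered with filterByExpr (minimum count 10, minimum total 15; 12680 of 17921 genes kept) and scaled with TMM. KO was compared with WT with the robust quasi-likelihood test of edgeR 4.0.16 in R 4.3.3, with genotype alone as the term and Benjamini-Hochberg adjustment over all genes tested. The residual degrees of freedom were 2, with a median prior of 3.58, so the number of mice limits precision. Adjusted p-values in the text are from this test unless another tool or setting is named. Standard errors were the fold change over the root of F, and intervals from the t distribution of the fit. Differences between libraries used log2(CPM + 0.5). The steps were tested on simulated counts. Alternatives were DESeq2 1.42.0, limma 3.58.1 on log2(TPM + 1), other scalings, no filter, the mouse number as a block and leaving out each library.

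The 8 genes and the other lists were chosen with earlier results of these data known. The genes named were all 8, every other plasma membrane transporter that passed, up to 4 genes of each other list with the smallest p-values among those that passed, and the nearest genes by profile. Atf4, Asns, Bcat1, Myc, Slc38a9, Slc25a22 and Sfxn1 were named after their values were seen. For 1 gene among the enzymes the values are not reported here. Gene positions and promoter windows are from RefSeq, GRCm38.p6, matched by gene ID (17787 of 17921). Protein sequences were not used here.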

Additional observations from a re-analysis of the deposited data

How the results depend on the processing

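The count of the 8 transporters called higher in KO was 0 with edgeR, with DESeq2 size factors, with library size alone, without the filter and with limma on log2(TPM + 1). It was 3 with the DESeq2 test and 4 with the mouse number as a replicate block (Slc1a5, Slc1a4, Slc7a1 and Slc38a1, where 10.6% of all genes were called higher). It ranged from 0 to 8 when a library was left out. The count called lower was 0 under every alternative run. All fold changes stayed above 0 except those of Slc7a5 and Slc38a2 without KO 1, both -0.10 (1.35 and 0.76 without KO 2). The lowest adjusted p of the 8 was 0.0829 as reported and 0.0526 with library size alone, under which the median over all genes of the log2 fold change was 0.12 in place of 0.02. The mouse numbers are not said to mark a shared litter or day. Same-numbered libraries deviated together with a correlation of 0.198 over genes, which with 2 pairs does not show that they are paired. The block raised all calls from 652 to 1338 higher and from 1043 to 1597 lower, and those of regulators and partners from 1 to 4 lower. The cause of these changes was not tested. In the fits without a KO library the spread comes from the WT libraries alone.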

Other observations

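Of 11 tested carriers of lysosomes and other inner membranes, 1 rose in KO and 0 fell, where 5.14% of all genes rose and 8.23% fell, and the median of their log2 fold changes was 0.07. The rise was that of Slc15a3, a lysosomal histidine and peptide carrier that is also expressed in myeloid cells. Slc15a3 stood at 85.2 and 65.7 CPM in KO 1 and KO 2, against 31.4 and 32.0 CPM in WT 1 and WT 2 (1.25, adjusted p = 0.0110, edgeR). It was higher in KO 1 than in KO 2, where 0 of the 11 myeloid markers were. The part of myeloid cells in this rise was not tested. Slc38a9, the lysosomal arginine sensor of mTORC1, stood at 16.7 and 23.8 CPM in KO, against 23.4 and 29.2 CPM in WT (-0.38, adjusted p = 0.307). The median of this group was -0.04 without KO 1, 0.12 without KO 2, -0.05 without WT 1 and 0.06 without WT 2. Of 10 mitochondrial amino acid carriers, 0 rose and 0 fell (edgeR), with a median of 0.26. Slc25a22, a glutamate carrier, had 0.29 (adjusted p = 0.206) and the serine carrier Sfxn1 had 0.25 (adjusted p = 0.266). Without KO 2, 5 of the 10 passed as higher, beside 22.2% of all genes, and without KO 1, 1 did, beside 17.3%.

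Among 30 genes of the amino acid sensing machinery upstream of mTORC1, 1 rose and 2 fell, beside 5.14% and 8.23% of all genes, and their median was 0.00 on the log2 scale. Sesn2 was the rise. Castor1, the cytosolic arginine sensor, fell to 29.1 and 50.4 CPM in KO 1 and KO 2, against 122 and 137 CPM in WT 1 and WT 2 (-1.71, adjusted p = 0.0182). Rragd, a Rag GTPase that docks mTORC1 at the lysosome, fell to 26.7 and 22.5 CPM in KO, against 51.5 and 46.7 CPM in WT (-0.997, adjusted p = 0.0146, and 0.0645 without WT 1). The median of the group was -0.0013 without KO 1 and -0.06 without KO 2. It was 0.04 without WT 1 and -0.05 without WT 2.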
